A study of Mus musculus with 3 samples.

Results

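The genes described here are 44 genes of mitosis and the mitotic spindle, out of 20145 genes named on the arrays. A gene was included by its symbol, and its probes are the mouse probes that carry a RefSeq transcript accession of that gene, which gave 61 of 55681 mouse probes. Of the 44 genes, 31 had 1 probe and 13 had several, and several probes of a gene were averaged. The genes code for cyclins and the kinase they activate, other mitotic kinases, the chromosomal passenger complex, the spindle checkpoint, the machinery that triggers anaphase, kinetochores, motors, spindle assembly factors and cytokinesis, with a proliferation marker, a topoisomerase and a transcription factor of the same phase.

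Gene expression was measured on 3 one-color arrays, 1 for each population of mouse cells sorted by flow cytometry. ES-Lhx6-GFP+ cells, and the ES-Lhx6-GFP- cells left beside them, were sorted on day 12 from aggregates of J14 cells, a male ES cell line of a 129 strain (129S4/SvJae in the labels) that carries GFP on a bacterial artificial chromosome of *Lhx6*, a transcription factor gene of interneurons born in the medial ganglionic eminence (MGE). The aggregates had received Dkk-1, a Wnt inhibitor, at 100 ng/ml, and SAG, an activator of hedgehog signaling, at 6 nM from day 3. MGE-Lhx6-GFP+ cells were sorted at embryonic day 12.5 from the MGE of mice, labeled female, that carry the same kind of transgene on a CD-1 background. The labels also give the J14 cells a viral mCherry reporter, so both ES populations are from 1 engineered line, and ES-Lhx6-GFP- cells are whatever live cells lacked green fluorescence. The populations are called ES GFP+, ES GFP- and MGE GFP+ below. All 3 arrays were on 1 slide. With 1 array per population no test was possible and there is no replicate check of any difference below.

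Cells that divide enter mitosis when cyclin B and Cdk1 become active, and the transcripts of most mitotic proteins are made late in the cell cycle and removed when cells leave it. The spindle checkpoint delays anaphase until every kinetochore is attached, Cdc20 then starts the anaphase promoting complex, and the central spindle and a contractile ring divide the cell. In the ganglionic eminences progenitors divide near the ventricle, and *Lhx6* comes on as young interneurons leave that zone.

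Promoters of mitotic genes are known for 2 short elements, the cell cycle genes homology region (CHR), TTTGAA, and the CCAAT box. The RefSeq promoter table (GRCm38.p6), with 250 bases before and 50 after each annotated start, held 38 promoters of 36 of the 44 genes, and *Aurkb*, *Ccna2*, *Cdc25c*, *Foxm1*, *Incenp*, *Kif20a*, *Spc24* and *Tpx2* had no entry. TTTGAA or its reverse complement TTCAAA was in 29 of the 38 promoters (76.3%), against 17.9% of all 32851 promoters of the same length, and in 26 of them (68.4%) it began within 50 bases of the start, against 4.94% of all. CCAAT or its reverse complement ATTGG was also in 29 (76.3%), against 37.4% of all promoters, and both words together were in 25 (65.8%) against 6.95%.

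The 120 bases before the start are shown for *Cdk1*, the central kinase, and for 5 other genes, to show how the words sit in single promoters. These 5 were at least 6.94-fold lower in ES GFP+ than in ES GFP- cells, and are examples, not all such genes. *Iqgap3*, *Anln*, *Spc25* and *Birc5* were also at least that much lower and are not shown. In the same stretch *Anln* and *Birc5* held neither word, *Iqgap3* only TTCAAA and *Spc25* only CCAAT. Capitals mark both words in either orientation. The stretches are chr4:118437344-118437463 for *Cdc20*, chr10:69352913-69353032 for *Cdk1*, chr11:99024190-99024309 for *Top2a*, chr7:135716380-135716499 for *Mki67* and chr13:100786487-100786606 for *Ccnb1*, all on the minus strand, and chr2:164769809-164769928 for *Ube2c*, on the plus strand.
Cdc20: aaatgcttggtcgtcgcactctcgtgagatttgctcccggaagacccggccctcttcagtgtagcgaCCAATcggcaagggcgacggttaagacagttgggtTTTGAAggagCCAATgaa
Cdk1: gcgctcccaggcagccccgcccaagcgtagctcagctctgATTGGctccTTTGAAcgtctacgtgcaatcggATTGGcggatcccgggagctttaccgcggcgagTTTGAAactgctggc
Top2a: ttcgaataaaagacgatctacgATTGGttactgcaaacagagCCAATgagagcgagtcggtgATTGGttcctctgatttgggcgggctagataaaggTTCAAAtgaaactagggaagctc
Ube2c: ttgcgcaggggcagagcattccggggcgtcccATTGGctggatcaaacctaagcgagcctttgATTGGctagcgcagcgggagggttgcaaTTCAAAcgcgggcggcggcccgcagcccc
Mki67: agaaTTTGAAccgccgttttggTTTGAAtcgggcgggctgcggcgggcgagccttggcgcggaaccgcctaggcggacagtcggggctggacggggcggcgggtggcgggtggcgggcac
Ccnb1: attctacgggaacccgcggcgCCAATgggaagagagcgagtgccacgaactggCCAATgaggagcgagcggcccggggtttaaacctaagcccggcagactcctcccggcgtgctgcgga

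In the *Cdc20*, *Cdk1*, *Top2a* and *Ube2c* stretches TTTGAA or TTCAAA began 18, 15, 23 and 29 bases before the start, with CCAAT boxes on either strand further upstream and, in *Cdc20*, also downstream of it. *Cdk1* held another match 71 bases before the start. *Mki67* had its matches 116 and 98 bases before the start, and *Ccnb1* showed CCAAT boxes with no TTTGAA in the window. Of the other words searched on both strands, the GC box GGGCGG was in 31 of the 38 promoters (81.6%) against 35.7% of all, the CHR variant TTCGAA in 4 (10.5%) against 1.56%, and the E2F word TTCCCGC in 0 against 4.6%. The words can overlap at their ends. A match is a description of the letters, not a binding site. The 27 genes with TTTGAA in a promoter had a median log2 difference of -2.12 between ES GFP+ and ES GFP- cells, the 9 genes without it -1.57 and the 8 without an entry -1.31. The 27 ran from -4.02 (*Iqgap3*) to 0.45 (*Cenpf*) and the 9 from -3.03 (*Ccnb1*) to -0.52 (*Pttg1*). Of the 9, *Bub1* and *Cdc25b* held the variant TTCGAA. A link between the word and the difference was not tested.

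Levels are given as log2 of the background-subtracted intensity minus the 75th percentile of the same array, so that 0 is that percentile. They are listed in the order ES GFP+, ES GFP- and MGE GFP+, and differences are log2 differences between these levels. The 75th percentile was an intensity of 747, 843 and 576 on the 3 arrays, and 90.6%, 80.3% and 77.1% of mouse probes were well above background. As a scale for noise within an array, 2 SDs of a difference between repeat spots came to 0.40 to 0.41 on the log2 scale (1.32- to 1.33-fold), which leaves out how cultures, embryos, sorts and amplifications vary. A second scale came from 106 control probes, against E1A of adenovirus and against ERCC sequences, which match no mouse gene. Their 95th percentile lay at log2 levels of -0.99, -2.04 and -1.93, so the control signals reached higher on the ES GFP+ array than on the others. Of these 106 control probes 86, 35 and 34 were themselves called well above background, so that on the ES GFP+ array the call hardly separated signal from background.

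The mitotic genes were highest in ES GFP- cells. The highest of the 3 levels was that of the ES GFP- array for 42 of 44 genes, and in 26 of these MGE GFP+ came next while in 15 ES GFP+ did, *Aurkb* being not well above background on either GFP+ array and so without an order between them. The exceptions were *Cenpf* and *Kif20a*, which read highest on the ES GFP+ array. Over the 10 alternatives the ES GFP- array was highest for 39 to 42 genes. Which GFP+ array was lowest depended on the scaling, with ES GFP+ lowest for 26 genes here, 38 with the 50th percentile, 39 with quantile normalization and 40 with the authors' processed values. In percentiles among all probes of the array, the median gene of the set stood at 35.5, 66.5 and 59.0, whereas the median of all named genes stood at 56.0, 57.9 and 56.2. The plot of levels by role shows the ES GFP- squares to the right in nearly every row.

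**Figure D1:**
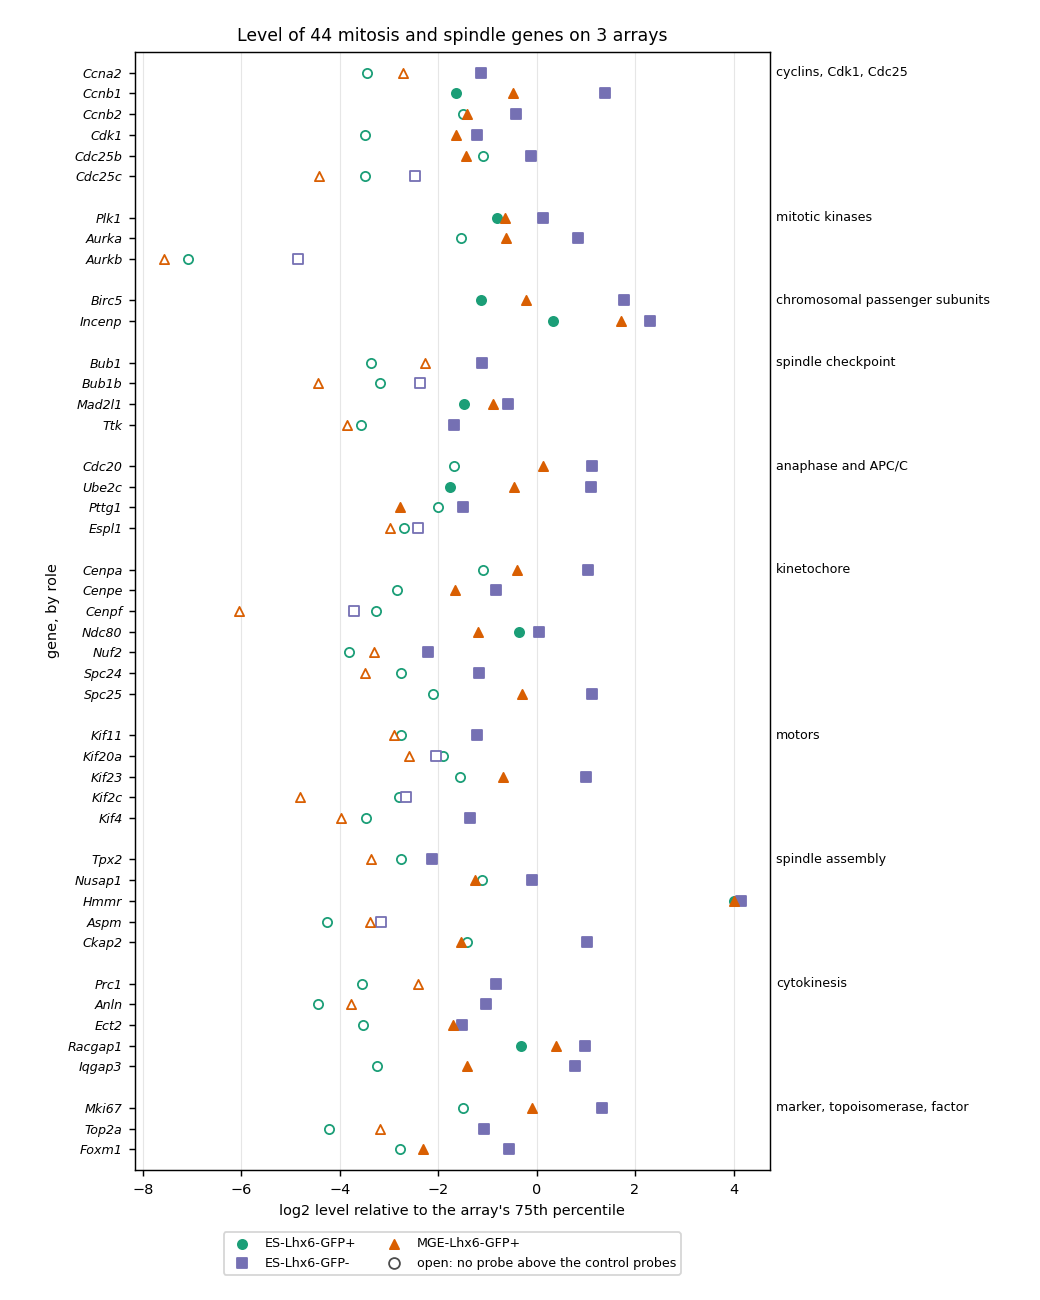
Log2 level of each of the 44 genes relative to the 75th percentile of its array (horizontal axis) on the ES GFP+ (circles), ES GFP- (squares) and MGE GFP+ (triangles) arrays, 1 array each, grouped by role. Open symbols are genes with no probe above the 95th percentile of the control probes, which are 35, 8 and 19 of the 44, and the ES GFP- square is rightmost for 42 genes.

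The first question was how cells that had switched on *Lhx6* compared with the rest of the same aggregates. Of the 44 genes, 42 were lower in ES GFP+ than in ES GFP- cells (35.5% of all genes were lower) and 2 higher (64.5%). By at least 2-fold 31 genes were lower (6.4% of all genes), and by at least 4-fold 21 (1.75%). Of all genes, 24% were at least 2-fold and 8.27% at least 4-fold higher, and 0 of the 44 were either. The median log2 difference of the set was -1.93, a 3.82-fold lower level, with quartiles of -2.48 and -0.92, and that of all 18655 genes with a value was 0.27. Relative to all genes the set was therefore 2.20 lower on the log2 scale, written as a difference of -2.20, and this relative value ran from -2.65 to -1.57 over the alternative processings. Differences beyond the repeat-spot spread were seen in 38 genes downward (18.2% of all genes) and in 1, *Cenpf*, upward (43.8%). The 5 values within it were those of *Aurkb*, *Espl1*, *Kif20a*, *Kif2c* and *Hmmr*, and that of *Aurkb* is a bound, which does not place the gene within the spread. The sign of *Cenpf*, *Kif20a*, *Kif2c* and *Hmmr* changed under at least 1 alternative.

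The depth of the ES GFP+ signal limits the size of these folds. On that array 35 of the 44 genes had no probe above the control probes, against 8 on the ES GFP- and 19 on the MGE GFP+ array. The folds given below for these 35 genes are those of the main setting and depend on how background is removed. With every array floored at its control probes, 26 genes kept a value and 15 were at least 2-fold lower in ES GFP+ cells (5.97% of all genes), but 17 of the 26 had a probe above the controls on the ES GFP- array alone, which fixes their direction, so nothing is read from these counts. Probes were also split by their level on the MGE GFP+ array, which does not enter this difference, a split chosen after seeing the data. Of the 34 probes of the set above the control range there, 34 were lower in ES GFP+ cells, with a median difference of -2.44, while all 24124 such mouse probes had a median of 0.05. Among the 27 dimmer probes 21 were lower and 6 higher, with a median of -1.14 against 0.89 for all 26869 probes in that range.

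**Figure D2:**
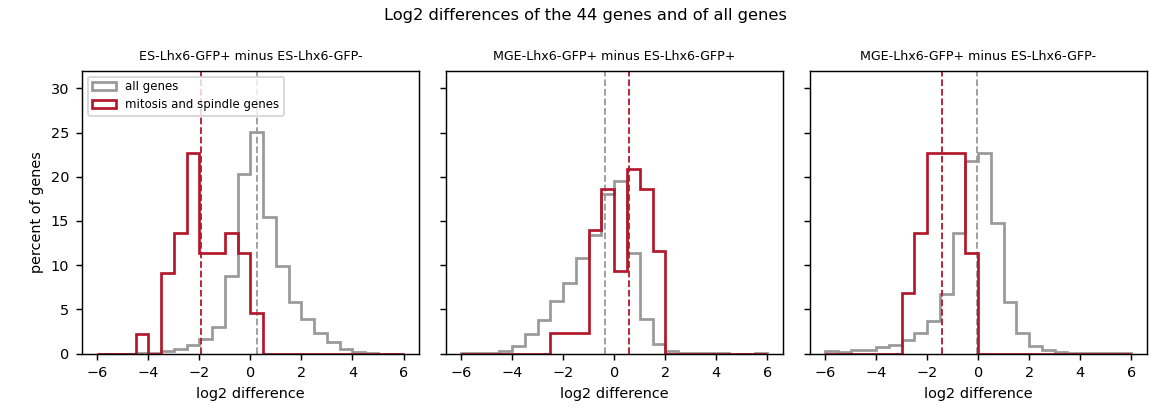
Percent of genes (vertical axis) by log2 difference in bins of 0.5 (horizontal axis) for the mitosis and spindle genes (red) and all genes (gray), in the 3 comparisons, with dashed lines at the medians. The set's median lies at -1.93, 0.59 and -1.42, and that of all genes at 0.27, -0.36 and -0.06.

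Cyclins and the kinase they drive were all lower in ES GFP+ cells (35.5% of all genes). *Ccnb1*, which codes for cyclin B1, had levels of -1.63, 1.40 and -0.47, a difference of -3.03 (8.16-fold lower) from ES GFP- cells. Its 3 probes gave -3.48 to -2.47, so they differed in size by 2.01-fold and not in direction. *Ccna2*, the cyclin of S phase and early mitosis, was 4.98-fold lower, and *Ccnb2*, cyclin B2, 2.09-fold. The phosphatases that switch Cdk1 on were lower by less: *Cdc25b* read -1.09, -0.12 and -1.43 (1.95-fold lower than ES GFP-), and *Cdc25c* read -3.49, -2.47 and -4.43 (2.03-fold lower). *Cdc25c* had no probe above the control range on any array.

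*Cdk1*, the kinase of mitotic entry, had gene levels of -3.49, -1.21 and -1.64, and its 3 probes did not behave alike. One probe read -3.34, 0.40 and 0.11, a difference of -3.75 between the ES populations. Another read -5.05, -1.13 and -1.38 and on the ES GFP+ array did not pass the call above background, so its difference of -3.86 is a bound. The remaining probe read -2.09, -2.90 and -3.65 and was 0.82 higher in ES GFP+ cells on the log2 scale. The mean over the probes was at least 4.80-fold lower in ES GFP+ cells.

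*Aurka*, a mitotic kinase of centrosomes and spindle poles, had levels of -1.53, 0.83 and -0.63, which is 5.14-fold lower in ES GFP+ than in ES GFP- cells. *Plk1*, polo-like kinase 1, read -0.81, 0.13 and -0.65 and was 1.91-fold lower. *Aurkb*, the enzyme of the chromosomal passenger complex, had a single dim probe at -7.09, -4.86 and -7.57 that was not well above background on either GFP+ array, and its difference is only a bound, at least 1.10-fold lower. Of the other subunits of that complex, *Birc5*, survivin, read -1.14, 1.77 and -0.22 (7.50-fold lower), with 1 of its 3 probes above the control range on the ES GFP+ array and probe differences from -3.29 to -2.15, and *Incenp*, the scaffold, read 0.33, 2.30 and 1.71 (3.90-fold lower), with 2 probes at -1.99 and -1.94.

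The spindle checkpoint genes were lower in all 4 cases (35.5% of all genes), 2 of them at least 2-fold (6.4%). *Bub1*, a checkpoint kinase at kinetochores, read -3.36, -1.11 and -2.27 (4.74-fold lower in ES GFP+ than in ES GFP- cells). *Ttk*, the kinase that starts checkpoint signaling, was 3.73-fold lower. *Bub1b*, which codes for BubR1, read -3.18, -2.38 and -4.45, 1.74-fold lower and within the control range on every array. *Mad2l1*, the inhibitor of Cdc20, had mean levels of -1.47, -0.58 and -0.88, and its probes gave differences of -1.78, -0.64 and -0.24. The probe behind the last value read 1.74, 1.98 and 1.56 and so varied little among the 3 arrays.

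Among the genes of anaphase, the activator and the ubiquitin conjugase of the anaphase promoting complex stood lowest. *Cdc20*, the activator, had levels of -1.67, 1.12 and 0.14 (6.94-fold lower), and *Ube2c*, the conjugase, had -1.77, 1.11 and -0.46 (7.33-fold lower), with both of its probes below -2.60. *Espl1*, separase, which cuts cohesin, read -2.70, -2.42 and -2.97 and differed by 1.22-fold, within the repeat-spot spread. *Pttg1*, securin, which holds separase inactive, had 2 probes that went opposite ways. The first read -1.64, 1.81 and 0.66, a 10.9-fold lower level in ES GFP+ cells, and the other read -2.39, -4.79 and -6.21, a difference of 2.40, so the gene mean of -0.52 describes neither.

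Kinetochore genes were lower in 6 of 7 cases (35.5% of all genes) and at least 2-fold lower in 5 (6.4%). *Spc25*, a subunit of the Ndc80 complex that binds microtubules, read -2.10, 1.12 and -0.29 (9.27-fold lower in ES GFP+ cells). *Spc24*, its partner, was 3.01-fold lower, *Nuf2* at least 2.97-fold, *Cenpa*, the centromeric histone, 4.38-fold, and *Cenpe*, a kinetochore motor, 4.02-fold. *Ndc80* itself read -0.37, 0.05 and -1.19 and was 1.34-fold lower. *Cenpf*, a large protein of the outer kinetochore, read -3.26, -3.71 and -6.05 and was 1.37-fold higher in ES GFP+ cells, on a single probe that no array put above the control probes and that was not well above background on the MGE array.

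The motors and spindle factors differed among themselves, with 6 of the 10 genes at least 2-fold lower (6.4% of all genes). *Kif23*, a kinesin of the central spindle, read -1.56, 1.01 and -0.68 (5.96-fold lower in ES GFP+ cells), *Kif4*, a chromosome-bound kinesin, was 4.36-fold lower and *Kif11*, the kinesin that pushes spindle poles apart, 2.95-fold. *Kif20a*, another kinesin of the central spindle, read -1.91, -2.05 and -2.59, 1.10-fold higher. *Kif2c*, which takes microtubules apart at their ends, read -2.80, -2.66 and -4.80, with probe differences of -0.71 and 0.42. Both genes were within the control range on all 3 arrays. Of the spindle assembly genes, *Ckap2* read -1.42, 1.02 and -1.54 (5.43-fold lower), *Aspm* -4.25, -3.16 and -3.39 (2.13-fold) and *Nusap1* was 2.04-fold lower. *Tpx2*, an activator of Aurora A, read -2.75, -2.13 and -3.37, with probe differences of -1.57 and 0.33. *Hmmr*, whose product sits on spindle microtubules, read 4.01, 4.15 and 4.01, above the 75th percentile on each array and with no difference beyond the repeat-spot spread in any comparison.

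All 5 cytokinesis genes were at least 2-fold lower (6.4% of all genes). *Iqgap3*, a scaffold protein of the IQGAP family, had the lowest difference of the 44 under the main setting. Its levels were -3.25, 0.77 and -1.42 (16.3-fold lower in ES GFP+ than in ES GFP- cells). The ES GFP+ level lay within the control range, and the difference ran from -4.998 to -1.76 over the settings, so neither the fold nor the rank is exact. *Anln*, anillin of the contractile ring, read -4.45, -1.02 and -3.77 (10.8-fold lower under the main setting). Its ES GFP+ intensity of 34.1 was below the control median of 70.1 on that array, and the difference ran from -5.02 to -2.21 over the settings. *Prc1*, which bundles the central spindle, was 6.61-fold lower, and *Ect2*, the exchange factor that activates the ring, read -3.52, -1.51 and -1.70 (4.04-fold lower). *Racgap1*, a partner of *Kif23*, read -0.33, 0.98 and 0.40 (2.48-fold lower), with probes at -1.84 and -0.78.

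The proliferation marker, the topoisomerase and the transcription factor followed the same order. *Mki67*, which codes for the Ki67 antigen, read -1.50, 1.34 and -0.09 (7.15-fold lower in ES GFP+ cells), with probes at -3.13 and -2.55. *Top2a*, which untangles DNA before segregation, read -4.23, -1.07 and -3.19 (8.91-fold lower under the main setting). Its ES GFP+ intensity of 39.9 was below the control median of 70.1 on that array, and the difference ran from -4.59 to -1.73 over the settings. *Foxm1*, a transcription factor of mitotic genes, read -2.78, -0.57 and -2.31 (4.64-fold lower), with probes at -2.44 and -1.99. In these 3 genes the ES GFP- array was highest and the ES GFP+ array lowest.

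**Figure D3:**
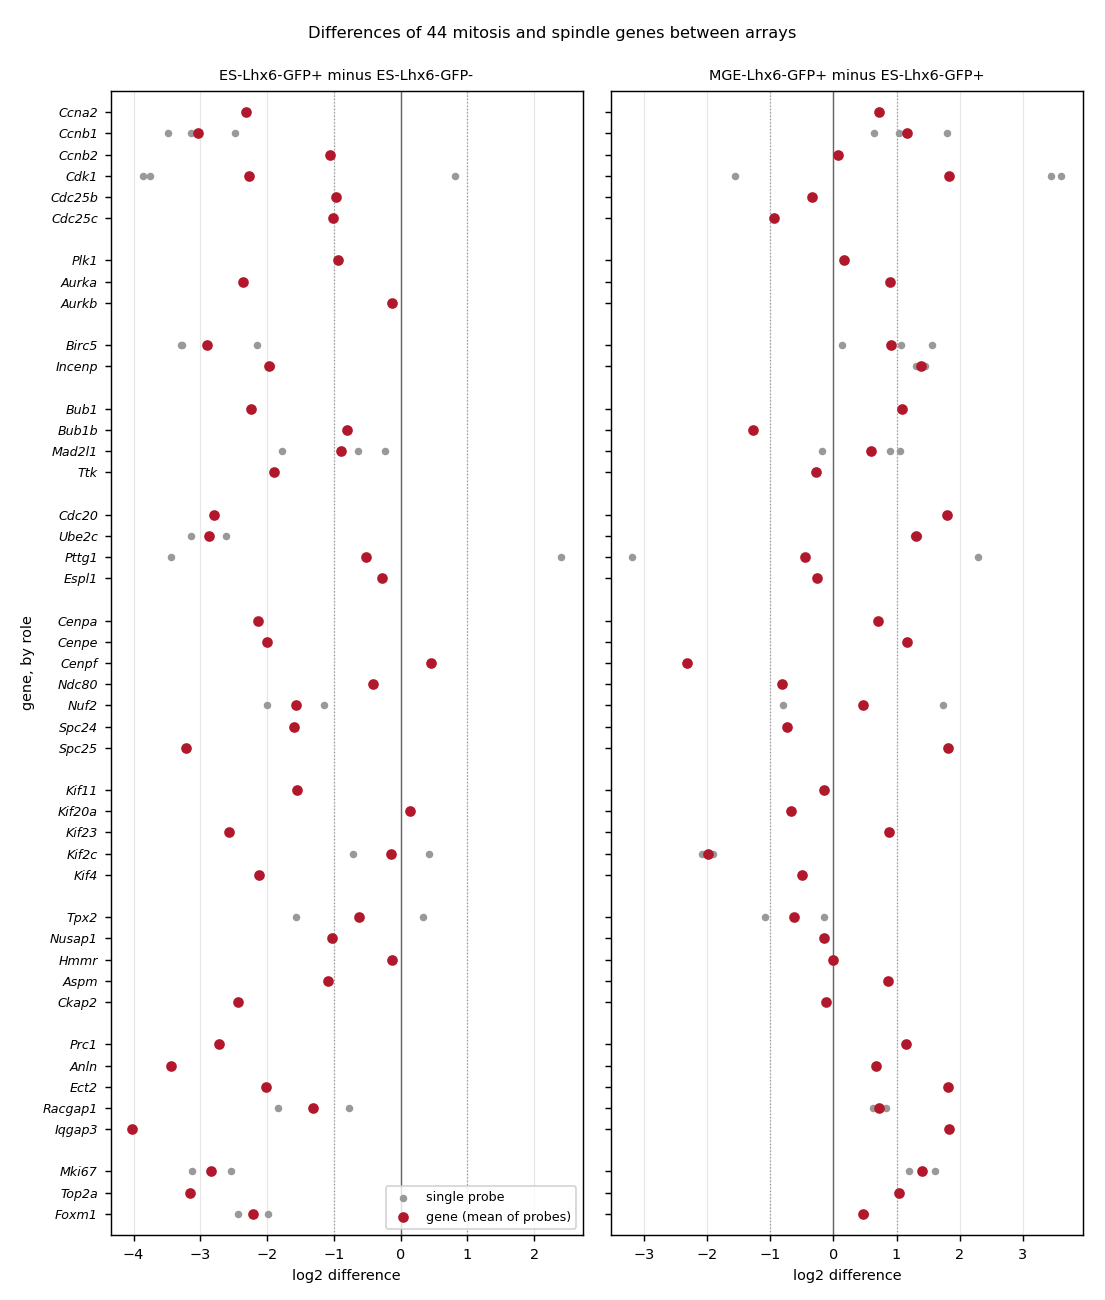
Log2 difference (horizontal axis) of each of the 44 genes, grouped by role, between ES GFP+ and ES GFP- (left) and between MGE GFP+ and ES GFP+ (right), with single probes in gray, the mean over probes in red and dotted lines at 2-fold (*Aurkb* has no value on the right). On the left 31 genes lie at or beyond 2-fold lower and 0 at 2-fold higher, and on the right 13 lie at or beyond 2-fold higher and 3 at 2-fold lower.

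Probes of 1 gene were compared where there were several. In 8 of the 13 genes with several probes the difference between ES GFP+ and ES GFP- cells varied over 2-fold among them, and in 4, namely *Pttg1*, *Cdk1*, *Tpx2* and *Kif2c*, it changed sign. The plot of probes by their level on the MGE GFP+ array shows that in each of these 4 the probe with the higher value in ES GFP+ cells lay to the left of the control range limit at -1.93, as did the other probes of *Tpx2* (-2.66) and *Kif2c* (-5.07), the latter dimmer than the probe that was higher (-4.53).

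The second comparison asked how the ES-derived GFP+ cells differed from GFP+ cells of the embryo. In MGE GFP+ relative to ES GFP+ cells, 26 of the 43 genes with a value were higher (36.4% of all genes were higher) and 17 lower (63.6%). At least 2-fold higher were 13 genes (5.48% of all genes) and at least 2-fold lower were 3, *Cenpf*, *Kif2c* and *Bub1b* (32.2% of all genes). The median was 0.59 (1.51-fold) against -0.36 for all 18580 genes, which is 0.95 above them, and over the alternatives this relative value ran from 0.53 to 1.18. Beyond the repeat-spot spread 24 were higher (20.2%) and 10 lower (48.6%), and 9 fell within it.

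These counts depend on the scaling between arrays. With the 50th percentile in place of the 75th, 24 genes were at least 2-fold higher (26% of all genes) and 2 lower (17.1%), and with quantile normalization 25 were higher (14.6%) and 0 lower (13.7%). With normexp background correction or the authors' own processed values 0 were lower as well (10.9% and 8.1% of all genes). With the floor at the control probes 17 genes had a value, of which 5 were at least 2-fold higher (7.59%) and 0 lower (10.1%), but 8 of the 17 had a probe above the controls on the MGE GFP+ array alone, and nothing is read from these counts either. In this comparison 18 genes changed sign under at least 1 alternative, against 4 between the ES populations and 5 between MGE GFP+ and ES GFP- cells. The 18 were *Ccnb2*, *Cdc25b*, *Cdc25c*, *Plk1*, *Bub1b*, *Mad2l1*, *Ttk*, *Pttg1*, *Espl1*, *Nuf2*, *Spc24*, *Kif11*, *Kif20a*, *Kif4*, *Tpx2*, *Nusap1*, *Hmmr* and *Ckap2*.

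The highest differences under the main setting were those of *Cdk1* (at least 3.57-fold higher in MGE GFP+ cells), *Iqgap3* (3.56-fold), *Ect2* (3.52-fold), *Spc25* (3.50-fold) and *Cdc20* (3.50-fold), all with levels given above. All of them lay within the control range on the ES GFP+ array, so these folds and their order are not exact. Over the settings the difference ran from 1.27 to 2.97 for *Iqgap3*, 1.37 to 3.11 for *Ect2*, 0.70 to 2.56 for *Spc25* and 1.12 to 2.55 for *Cdc20*. The *Cdk1* value holds probes at 3.45 and 3.61 and the deviating one at -1.56. *Mki67* was 2.66-fold higher, *Incenp* 2.61-fold, *Ube2c* 2.47-fold, *Ccnb1* 2.24-fold and *Top2a* 2.05-fold, while *Foxm1* was 1.39-fold higher and *Plk1* 1.12-fold. None of the 5 cytokinesis genes was lower in MGE GFP+ cells (63.6% of all genes), and 3 of them were at least 2-fold higher (5.48%). At the other end, *Cenpf* was at least 4.98-fold lower, *Kif2c* 3.99-fold, *Bub1b* 2.41-fold, *Cdc25c* 1.92-fold and *Ndc80* 1.77-fold. The first 4 had no probe above the control range on any array, and the difference turned positive under 2 of the alternatives for *Bub1b* and under 3 for *Cdc25c*.

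The third comparison set the embryonic GFP+ cells against the GFP- cells of the aggregates. All 44 genes were lower in MGE GFP+ than in ES GFP- cells (52.6% of all genes were lower), 29 of them at least 2-fold (17.2%) and 9 at least 4-fold (6.8%). Of all genes 47.4% were higher, 9.9% at least 2-fold, 1.69% at least 4-fold and 28.3% beyond the repeat-spot spread, and 0 of the 44 were any of these. The median was -1.42 (2.67-fold lower) against -0.06 for all 17025 genes, and relative to all genes it ran from -1.42 to -1.003 over the alternatives, with a main value of -1.36. The repeat-spot spread was passed by 40 genes (34.4% of all genes). With the floor at the control probes 36 genes had a value and 16 were at least 2-fold lower (10.6%), but 11 of the 36 were above the controls on the ES GFP- array alone, which fixes their direction, and nothing is read from these counts. Both comparisons with ES GFP- cells use the same ES GFP- array, so their values are given side by side and not set against each other.

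The lowest differences were those of *Anln* (6.74-fold lower in MGE GFP+ cells), *Kif4* (6.18-fold, with levels of -3.47, -1.35 and -3.98), *Ckap2* (5.90-fold), *Spc24* (4.995-fold, with levels of -2.76, -1.17 and -3.49) and *Iqgap3* (4.57-fold). *Top2a* was 4.34-fold lower, *Birc5* 3.96-fold, *Ccnb1* 3.65-fold, *Foxm1* 3.35-fold and *Mki67* 2.69-fold. Of these genes *Anln*, *Kif4*, *Spc24* and *Top2a* lay within the control range on the MGE GFP+ array, so their folds and ranks are not exact. The smallest differences were those of *Hmmr* (-0.14), *Ect2* (-0.20), *Aspm* (-0.23), *Mad2l1* (-0.30) and *Cdk1* (-0.43), and the first 4 of these and *Racgap1* changed sign under at least 1 alternative. Probes of *Racgap1* gave -1.22 and 0.05 and those of *Nuf2* -1.94 and -0.26 (levels of -3.81, -2.20 and -3.30 for the mean), over 2-fold apart in both genes.

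**Figure D4:**
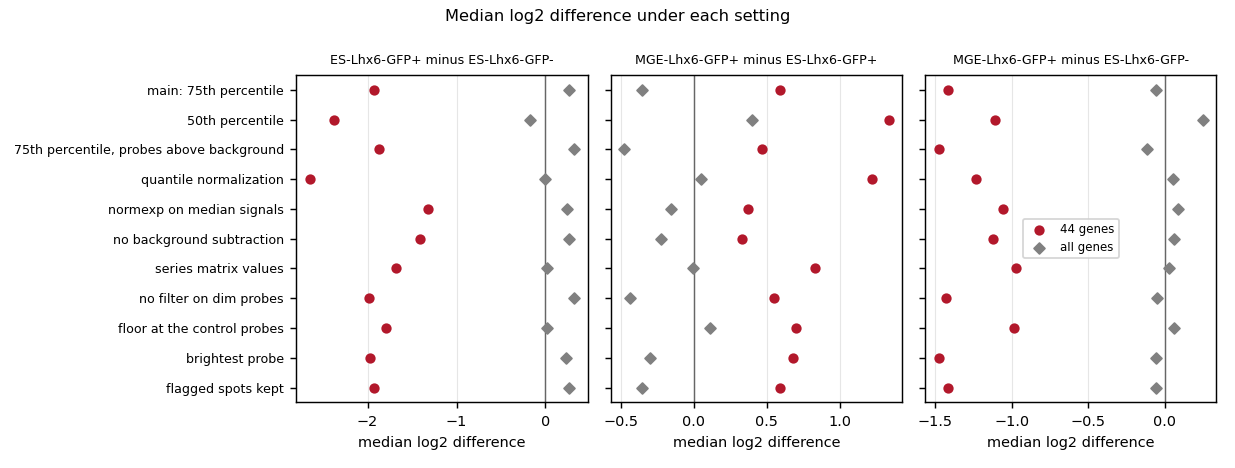
Median log2 difference (horizontal axis) of the 44 genes (red) and of all genes (gray diamonds) in the 3 comparisons under the main setting and each of the 10 alternatives (rows). The red points stay between -2.65 and -1.33 on the left, 0.33 and 1.34 in the middle and -1.48 and -0.97 on the right, on the same side of the gray ones in every row.

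Other genes of cell division were taken as lists. Of 20 other mitotic kinases and regulators, 10 were at least 2-fold lower and 1 at least 2-fold higher in ES GFP+ than in ES GFP- cells, with a median of -1.22. *Melk*, a kinase of dividing progenitors, was the lowest (12.2-fold) and *Plk4*, the kinase of centriole duplication, the highest (3.52-fold higher). Of 18 other mitotic kinesins and spindle or midbody genes measured, 11 were at least 2-fold lower and 1 higher, with a median of -1.32, from *Kif22* (9.20-fold lower), a chromosome-bound kinesin, to *Kif20b* (3.08-fold higher). *Kif14* was not found by name. Of 27 other kinetochore and centromere genes, 9 were at least 2-fold lower and 3 higher, with a median of -0.26, and *Knl1*, the kinetochore scaffold, was the lowest (5.40-fold). Of 12 condensin genes and cohesin regulators, 4 were lower and 1 higher by that measure, with a median of -0.36, and *Smc4*, a condensin subunit, was the lowest (5.14-fold). On the ES GFP+ array *Melk*, *Plk4*, *Kif22*, *Kif20b*, *Knl1* and *Smc4* all lay within the control range, *Melk* below the control median, so these folds and ranks are not exact. Of all genes 6.4% were at least 2-fold lower and 24% at least 2-fold higher in this comparison. These 4 medians were below that of all genes under the main setting and all 10 alternatives.

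The anaphase promoting complex itself was read beside its activator. Of 14 genes of its subunits and partners 0 were at least 2-fold lower (6.4% of all genes) and 0 at least 2-fold higher (24%) in ES GFP+ cells, with a median of 0.06, and the list stood from -0.26 to 0.01 relative to all genes over the settings, crossing 0. The 13 genes of the DREAM and MuvB complexes, which bind promoters of cell cycle genes, had a median of 0.10, with 3 at least 2-fold lower and 1 higher, and stood from -0.22 to 0.03 relative to all genes. *E2f8*, an E2F repressor, was the lowest (at least 5.53-fold) and *Lin9*, a MuvB subunit, the highest (2.82-fold higher). Both genes lay within the control range on each ES array. TTTGAA was in 72.2% of the 18 promoters of the other kinesins and midbody genes, 50% of the 12 of condensin and cohesin genes, 40% of the 25 of other kinetochore genes, 38.9% of the 18 of other mitotic kinases, 38.5% of the 13 of the DREAM and MuvB genes and 6.67% of the 15 of the anaphase promoting complex, against 17.9% of all promoters.

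At least 2-fold lower in MGE GFP+ than in ES GFP- cells were 11 of the 20 other mitotic kinases and regulators, 11 of the 18 other kinesins and midbody genes, 10 of the 27 other kinetochore genes, 3 of the 11 condensin and cohesin genes with a value and 0 of the 14 genes of the anaphase promoting complex, against 17.2% of all genes. Between the GFP+ populations the medians of these lists were 0.17, -0.18, 0.17, -0.15 and 0.22, where the median of all genes was -0.36, with 2, 3, 5, 3 and 0 genes at least 2-fold lower and 4, 3, 3, 3 and 1 at least 2-fold higher in MGE GFP+ cells, against 32.2% of all genes lower and 5.48% higher. Relative to the median of all genes these list medians were 0.53, 0.17, 0.53, 0.20 and 0.57 higher, and that of the condensin and cohesin genes turned below it in 2 of 11 settings.

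Markers of cell types were read on the same arrays, since a bulk sample cannot tell fewer dividing cells from less mitotic RNA per cell. The interneuron list (*Lhx6*, *Lhx8*, *Dlx1*, *Dlx2*, *Dlx5*, *Gad1*, *Gad2*, *Sox6* and *Nkx2-1*) was at least 2-fold higher in 9 of 9 genes in each GFP+ population than in ES GFP- cells (24% of all genes for ES GFP+ and 9.9% for MGE GFP+ cells). Its summed level, in multiples of the 75th percentile, was 119, 29.6 and 201, with *Lhx6* the brightest on both GFP+ arrays. Cells were sorted by GFP from an *Lhx6* transgene, so higher *Lhx6* was selected by the sort and is no separate result. The differences of its 3 probes from ES GFP- cells lay 3.99 apart for ES GFP+ and 5.005 apart for MGE GFP+ cells on the log2 scale. Signals of different probes cannot be compared as abundance, so the sums here and below are read only across arrays. The brightest gene is named because it weighs most in its sum. Of 9 neuronal markers 2 were at least 2-fold higher in ES GFP+ cells, against 24% of all genes, led by *Dcx*, and the sums were 373, 292 and 426, with *Snap25* the brightest on each array. In ES GFP+ relative to ES GFP- cells 8 of the 9 were higher (64.5% of all genes), and *Elavl4* was 1.775-fold lower. In MGE GFP+ relative to ES GFP+ cells 6 were higher (36.4%) and 3 lower (63.6%), *Rbfox3* the most (2.68-fold).

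Neural progenitor markers, like the mitotic genes, were mostly lower in each GFP+ population than in ES GFP- cells. All 9 were lower in ES GFP+ than in ES GFP- cells (35.5% of all genes) and 8 of them at least 2-fold (6.4%), with a median of -2.06. In MGE GFP+ relative to ES GFP- cells 8 were lower (52.6%), 7 at least 2-fold (17.2%), with a median of -2.39. Their summed level was 13.1, 65.0 and 16.2, with *Vim* the brightest on the ES GFP- array and *Hes5* on the others, and *Hes1* and *Slc1a3* lay within the control range on both GFP+ arrays. Between the GFP+ populations the progenitor markers had a median of -0.02, where that of the mitotic genes was 0.59. The mitotic genes summed to 27.5, 62.7 and 34.5, of which *Hmmr* made 16.1, 17.7 and 16.1, and without it to 11.4, 45.0 and 18.4.

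Oligodendrocyte precursor markers were also highest in ES GFP- cells by their sum (1.27, 7.81 and 1.32), with *Olig2* the brightest on each array. The exception among the 5 was *Cspg4*, which read -2.354, -2.515 and -2.558 and so was highest on the ES GFP+ array. At least 2-fold lower in ES GFP+ than in ES GFP- cells were 3 of the 5 (6.4% of all genes), and *Olig1* and *Pdgfra* were not well above background on the MGE array. Of 7 pluripotency markers 4 were at least 2-fold lower in ES GFP+ (6.4% of all genes) and 6 in MGE GFP+ (17.2%) than in ES GFP- cells. A *Nanog* probe of 309, 298 and 391 filled their sum, and the rest came to 1.54, 8.40 and 0.41. *Pou5f1*, *Zfp42*, *Dppa5a*, *Esrrb* and *Utf1* lay within the control range on both GFP+ arrays. The *Tdgf1* differences from ES GFP- cells are bounds, so the sizes of the pluripotency differences are not exact. *Zfp42* was 1.38-fold higher in ES GFP+ than in ES GFP- cells. The part of progenitors, oligodendrocyte precursors and pluripotent cells in the mitotic difference was not tested.

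Of the other tissues, erythroid and mesenchymal markers separated the embryo from the aggregates. Erythroid genes summed to 1.31, 0.81 and 20.5, with *Hba-a1* the brightest on each array, and *Hbb-bt* was above background on neither ES array. Mesenchymal genes summed to 3.91, 5.22 and 0.35, with *Col3a1* the brightest on the ES GFP+ and *Col1a2* on the other arrays, and 5 of 6 were at least 2-fold lower in MGE GFP+ than in either ES population (32.2% of all genes against ES GFP+ and 17.2% against ES GFP- cells). All 6 lay within the control range on the MGE GFP+ array, and 4 (*Col1a1*, *Pdgfrb*, *Twist1* and *Acta2*) on the ES GFP+ array. The sizes of these differences are therefore not exact. Endothelial genes summed to 0.93, 0.85 and 1.00, with *Flt1* the brightest on the ES arrays and *Kdr* on the MGE array. These sums hide opposite differences. Of 5 genes with a value, 3 were at least 2-fold lower in MGE GFP+ than in ES GFP+ cells (32.2% of all genes). These 3, *Pecam1*, *Cldn5* and *Flt1*, lay within the control range on both GFP+ arrays, so their differences are not exact. Those of *Cldn5* and *Flt1* are bounds. Only *Kdr* was at least 2-fold higher (5.48% of all genes), by at least 4.27-fold. *Cdh5* was not above background on any array, nor were *Cldn5* and *Flt1* on the MGE array. Microglial genes summed to 1.51, 0.72 and 1.35, with *Csf1r* the brightest on each array, and 3 of 5 with a value were at least 2-fold higher in ES GFP+ than in ES GFP- cells, against 24% of all genes. The 5 genes beside *Csf1r* (*Aif1*, *Ptprc*, *Cx3cr1*, *Tyrobp* and *C1qa*) lay within the control range on both ES arrays, and the list median turned below that of all genes in 1 of 11 settings. *Cx3cr1* was not above background on either ES array, nor *Tyrobp* and *C1qa* on the ES GFP- array. Their part in the mitotic differences was not tested.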

How the data were processed

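The members and lists were chosen with earlier results of these data known. The authors extracted the arrays with Feature Extraction (10.7.3.1, per the file headers), and the deposited files give intensities for each of 62976 spots. The labels name a low-input amplification kit and 4x44K arrays, whereas the methods name another amplification kit and 8x60K arrays. The deposited log2 values of the series matrix equaled the median over a probe's spots of quantile-normalized median signals to within 0.12, and served as an alternative.

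Spots flagged as outliers were left out, spots of a probe were averaged on the log2 scale, and each array was set relative to its 75th percentile over mouse probes. A probe that was not well above background was raised to the lowest level called so on its array, and its fold was given as a bound. Control spots were left out of all gene values. Values on every array are given for 7 genes set by name, the extremes of each role, the 5 lowest and 5 highest per comparison, dim genes and genes whose probes differed over 2-fold. Normexp (limma 3.58.1, R 4.3.3, offset 50) was run on median signals in place of the mean signals first listed for it. Other steps used Python 3.11.15 with pandas 2.3.3 and numpy 2.4.6 and were tested on simulated data. The 10 alternatives covered scaling, background, filters, flags and the choice of probe. Promoters are from RefSeq (GRCm38.p6). The number of arrays, 1 per population, limits the precision, and all were scanned together. The value of 1 marker gene is not reported here.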

Additional observations from a re-analysis of the deposited data

How the results depend on the processing

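Of 90 values that answer the comparisons under 10 alternatives, 66 stayed within 1.5 times the count or within the repeat-spot SD of the median, and no median of the 44 genes changed sign. With the 50th percentile the medians for ES GFP+ minus ES GFP-, MGE GFP+ minus ES GFP+ and MGE GFP+ minus ES GFP- were -2.38, 1.34 and -1.11, with normexp -1.33, 0.37 and -1.06, without background subtraction -1.41, 0.33 and -1.12, and with the series matrix values -1.68, 0.83 and -0.97. Quantile normalization gave -2.65 and 1.22 for the first pair, and the floor at the control probes -0.99 for the last. In MGE GFP+ relative to ES GFP+ cells, 0 genes were at least 2-fold lower under quantile normalization, normexp, the series matrix values and the control floor, and 24, 25 and 5 were at least 2-fold higher with the 50th percentile, quantile normalization and the control floor. That floor left 15 genes at least 2-fold lower in ES GFP+ and 16 in MGE GFP+ than in ES GFP- cells, with a value for 26 and 36 genes. A floor by construction leaves genes at it on both arrays without a value and shrinks the fold of a gene at it on 1 array, as for *Ccna2* in MGE GFP+ relative to ES GFP- cells (-1.59 to -0.80). With only probes above the controls on the MGE GFP+ array, a further alternative chosen after seeing the data, 25 genes had a value and the median for ES GFP+ minus ES GFP- was -2.36. *Bub1b* turned from -1.27 to 0.33 between the GFP+ populations under both quantile normalization and the series matrix values, and the cause was not tested. The median of all genes between the ES populations moved from 0.27 to -0.18 with the 50th percentile and to -0.00128 with quantile normalization. No paired analysis was possible because each population has 1 array. Signal over background limits the dim genes most, and the 35 genes within the control range on the ES GFP+ array have folds that depend on how background is removed.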

Other observations

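Genes of DNA replication, which act in S phase, were read beside the mitotic ones. Of 20, 9 were at least 2-fold lower (6.4% of all genes) and 0 at least 2-fold higher (24%) in ES GFP+ than in ES GFP- cells, with a median of -0.93. *Mcm3*, a subunit of the replicative helicase, read log2 levels of -1.87, 1.73 and -0.24 on the ES GFP+, ES GFP- and MGE GFP+ arrays. It was 12.1-fold lower in the first than in the second under the main setting. *Rrm2*, a subunit of ribonucleotide reductase, read -1.92, 1.14 and 0.47 and was 5.26-fold higher in MGE GFP+ than in ES GFP+ cells. On the ES GFP+ array *Mcm3* and *Rrm2* both lay within the control range, so neither fold is exact. In MGE GFP+ relative to ES GFP+ cells 8 of the 20 were at least 2-fold higher (5.48% of all genes) and 1 lower (32.2%), with a median of 0.71. In MGE GFP+ relative to ES GFP- cells 5 were at least 2-fold lower (17.2%) and 1 higher (9.9%), with a median of -0.62. The list stood on the same side of all genes under the main setting and the 10 alternatives in each comparison. The E2F word TTCCCGC was in 9 of 17 promoters of these genes (52.9%) and TTTGAA in 2 (11.8%), against 4.6% and 17.9% of all promoters.

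Of 9 genes linked to cell cycle exit, 8 were lower in ES GFP+ than in ES GFP- cells (35.5% of all genes), 3 at least 2-fold (6.4%), and 0 at least 2-fold higher (24%). The median was -0.61, and it lay below that of all genes under the main setting and the 10 alternatives. *Cdkn1c*, an inhibitor of cyclin-dependent kinases, read 3.16, 4.43 and 3.46 (2.41-fold lower in ES GFP+ cells). *Cdkn1a*, the p53 target that codes for another such inhibitor, read 0.67, 1.32 and -2.92 and was 12.1-fold lower in MGE GFP+ than in ES GFP+ cells, with its MGE level within the control range. That fold is a mean over 2 probes, whose differences lay 2.34 apart on the log2 scale. *Ccng2*, an atypical cyclin, read 0.10, -0.54 and 1.52 and was 4.18-fold higher in MGE GFP+ than in ES GFP- cells. Outside the lists, the genes whose pattern over the 3 arrays lay closest to the median pattern of the 44 genes were *Tmem97*, *Dbi*, *Tmem47*, *Mdk* and *Dll1*, with root mean square distances of 0.039 to 0.049 on the log2 scale. Over 3 arrays many genes can lie that close, and no shared function is read from it.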
